A study of Homo sapiens with 6 samples.

Results

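The 10 genes described here belong to the BCL2 family, whose proteins decide at the mitochondrial outer membrane whether a cell survives or dies by apoptosis. They were chosen by name, with earlier results of these data known. They represent 10 of the 18404 genes that had at least 1 probe set with a single gene symbol on the array. Each of them had 1 probe set that carried its symbol and no other symbol, so 10 of 32321 probe sets were followed. Expression was measured in DEV cells, the established line of a nodular lymphocyte predominant Hodgkin lymphoma, with Affymetrix human Gene 1.0 ST arrays. The 6 arrays form 3 groups of 2. DEV cells were grown alone (monoculture), beside CD3-positive T cells (T cell coculture) or beside CD14-positive monocytes (monocyte coculture), with 10 blood cells per DEV cell in the cocultures and harvest at day 5. The blood cells came from healthy donors, and magnetic beads against CD4, CD8 and CD14 were used to remove them from the cocultures before RNA was extracted. This purification is described for the cocultures only, so its effect and that of the blood cells cannot be told apart. DEV is a single line, and all 3 groups share its background. The study's legend calls the replicates representative ones taken from several experiments, without saying how they were picked, and the labels do not say whether they came from separate cultures. The p-values therefore measure only the spread between these arrays, which may be technical.

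The family has 3 kinds of members. The survival proteins, encoded here by BCL2, BCL2L1 (BCL-XL), MCL1 and BCL2A1 (BFL-1/A1), hold the death proteins in check. The effectors BAX and BAK1 form the pores in the outer membrane through which cytochrome c leaves the mitochondrion. The BH3-only proteins BCL2L11 (BIM), BBC3 (PUMA), PMAIP1 (NOXA) and BMF sense stress or loss of survival signals, bind the survival proteins and release or activate the effectors. Germinal centre B cells and the lymphomas that derive from them are known to depend on the balance between these classes.

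The stretches of 250 bases before the transcription start are shown for BCL2A1 and BMF, the members with the lowest p-values among those lower in coculture, and for BAX, the effector whose coculture arrays all lay above monoculture. They were taken from RefSeq promoters of assembly GRCh38.p14, which held 11 start sites for 9 of the 10 members, and each reads 5′ to 3′ on the strand of its gene. The capitals mark the TATA box (TATAAA) of BCL2A1 at chr15:79971197-79971446 on the minus strand, the NF-kB motif of BMF at chr15:40108880-40109129 on the minus strand, and the E-boxes (CACGTG) of BAX at chr19:48954625-48954874 on the plus strand.
BCL2A1: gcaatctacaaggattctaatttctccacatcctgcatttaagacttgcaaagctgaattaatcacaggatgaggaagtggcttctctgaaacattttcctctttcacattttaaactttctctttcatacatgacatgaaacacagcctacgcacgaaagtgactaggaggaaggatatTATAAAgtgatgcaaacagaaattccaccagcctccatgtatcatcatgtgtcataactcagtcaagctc
BMF: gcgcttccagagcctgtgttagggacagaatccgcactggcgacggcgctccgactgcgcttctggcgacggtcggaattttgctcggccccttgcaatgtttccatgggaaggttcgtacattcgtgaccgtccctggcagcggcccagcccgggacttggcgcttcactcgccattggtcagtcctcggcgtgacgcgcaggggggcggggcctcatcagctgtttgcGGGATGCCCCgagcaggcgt
BAX: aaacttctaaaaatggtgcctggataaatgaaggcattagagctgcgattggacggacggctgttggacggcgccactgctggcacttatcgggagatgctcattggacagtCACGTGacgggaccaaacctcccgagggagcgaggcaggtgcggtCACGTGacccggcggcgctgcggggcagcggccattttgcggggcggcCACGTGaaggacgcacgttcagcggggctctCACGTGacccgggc
Both strands were searched. BAX held 4 E-boxes in this window and BBC3 held 1, whereas 6.34% of 35116 promoters of this length held any. A TATA box was present in 10.7% of promoters, with 1 copy in BCL2A1 at position -70 and 2 copies before one of the start sites of BCL2L1. The NF-kB motif was present in 9.96% of promoters and, among the members, in BMF at position -20 of the window shown. The window before the other start site of BMF, at chr15:40106967-40107216, held no match. The forkhead motif GTAAACA (2.98% of promoters) was found in BCL2L11, and the AP-1 motif TGANTCA (6.57%) in BBC3. GC boxes (GGGCGG, 42.6% of promoters) and CCAAT boxes (32%) were each found in 5 members. A match gives the letters of a window and is no evidence that a factor binds there.

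The cells on the arrays carried B cell transcripts in all groups. MS4A1, which encodes CD20, lay between 9.22 and 9.87 (log2 expression value, used for all levels below), and CD79A between 8.73 and 9.39. The 8 measured B cell markers averaged 8.64 and 8.72 alone, 8.78 and 8.35 with T cells and 8.56 and 8.28 with monocytes, with 4 higher and 4 lower for both cocultures and none called. All coculture arrays lay above monoculture for MS4A1 (0.57 ± 0.091 for both cocultures, limma adjusted p = 0.0545) and CD22 (0.70 ± 0.13, limma adjusted p = 0.0664). They lay below monoculture for PAX5, BLK and BLNK. PAX5, the B cell identity factor, read 10.23 and 10.00 alone, 9.57 and 7.77 with T cells and 8.26 and 7.43 with monocytes (-1.86 ± 0.50, limma adjusted p = 0.122). The part of these marker differences in the results below was not tested. In some monocyte markers 1 array stood apart. Monocyte coculture replicate 1 gave 8.42 for the lysozyme gene LYZ against 4.98 to 5.09 in the other 5 arrays, 6.15 for CD14 against 5.21 to 5.42, and 6.24 for FCER1G against 4.91 to 5.17. The mean level of the 15 measured monocyte markers was 6.37 on this array and 5.73 to 5.90 on the others. Not all markers took part, since S100A9, FCN1 and CD163 on this array lay within the range of the other 5. With monocytes, 12 of the 15 had higher and 3 lower means than alone, and none was called. MNDA was among the lower ones, at 8.27 and 8.93 alone and 7.96 and 7.85 with monocytes. CD68, which is also a lysosomal gene, was higher on both monocyte coculture arrays (9.15 and 9.45) than in monoculture (7.13 and 7.62), and the T cell coculture arrays lay between them (7.64 and 8.44). The 15 T cell markers averaged 6.01 and 5.75 in the T cell cocultures against 5.88 and 5.91 in monoculture. By gene, 11 had higher and 4 lower means with T cells, with a median difference of 0.071 (0.024 over all probe sets). CCR7 read 9.83 and 10.33 alone and 10.18 and 7.30 with T cells, which lowered the average of T cell coculture replicate 2. IL7R read 4.89 and 4.81 alone and 5.52 and 5.16 with T cells (0.48 ± 0.14, limma adjusted p = 0.195). The T cell receptor component CD3D was already at 8.26 and 8.33 in DEV cells alone. CD3D read 8.07 and 8.12 with T cells and 7.55 and 7.47 with monocytes. With monocytes CD3D fell by 0.79 ± 0.090 on the log2 scale (limma adjusted p = 0.0455). CD3E read 5.06 and 4.98 alone, 5.50 and 5.12 with T cells and 5.11 and 5.31 with monocytes. All coculture arrays of CD3E lay above monoculture (0.24 ± 0.13 for both cocultures, limma adjusted p = 0.399). The 8 NK cell markers averaged 5.17 to 5.31 and the 6 platelet and erythroid markers 5.30 to 5.57. Since these are bulk samples, fewer cells of a type and less RNA per cell cannot be told apart. Array medians lay between 5.64 and 5.73.

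**Figure D1:**
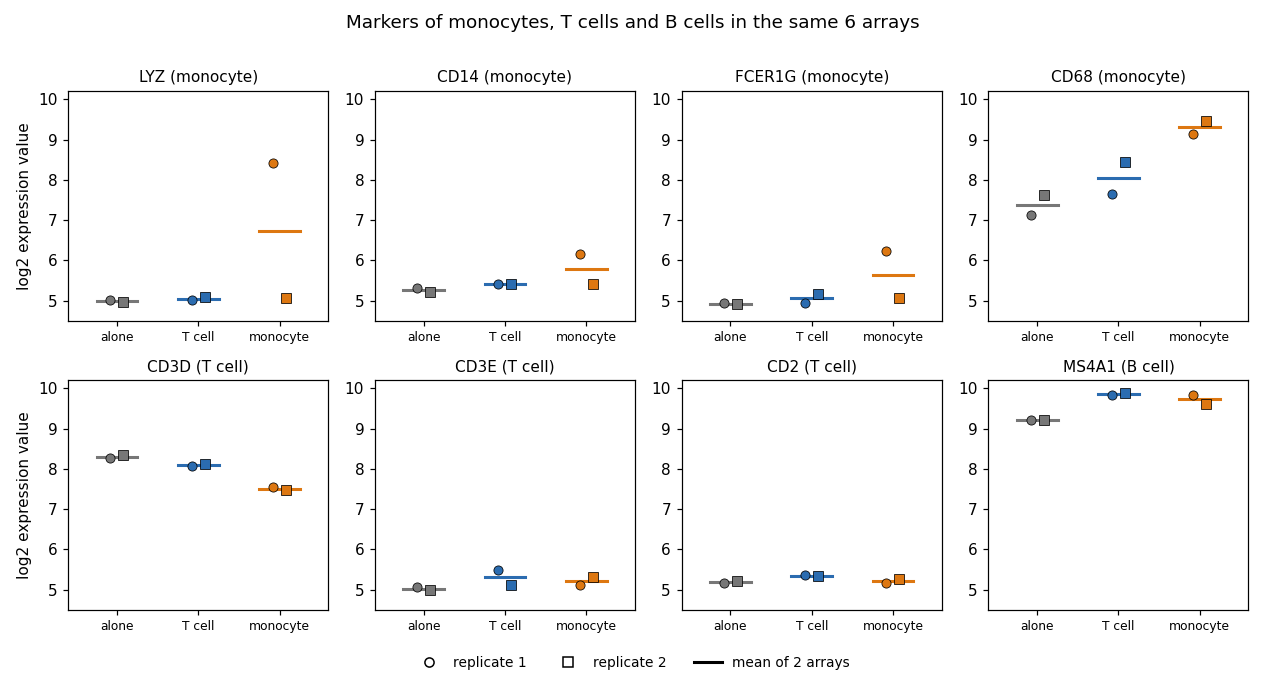
Log2 expression value of 4 monocyte markers, 3 T cell markers and the B cell marker MS4A1 on each array (y axis, 1 range for all panels), by culture group (x axis: DEV cells alone, with T cells, with monocytes). Replicate 1 is drawn as a circle, replicate 2 as a square, and a bar marks the mean of both. LYZ stood at 8.42 on monocyte coculture replicate 1 and between 4.98 and 5.09 on the other 5 arrays. Monocyte markers with lower means in the monocyte coculture, such as MNDA, are not drawn.

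In DEV cells grown beside blood cells, 1 of the 10 members passed the test against monoculture. BCL2A1 fell in both cocultures combined, and in the monocyte coculture on its own. No member was called in the T cell coculture, nor between the cocultures. A gene was called at an adjusted p under 0.05 in limma, with Benjamini-Hochberg adjustment over all 32321 probe sets. At this threshold 0.718% of all probe sets were called for both cocultures, 0% for the T cell coculture, 0.579% for the monocyte coculture and 0% for monocyte against T cell coculture. At an unadjusted p under 0.05 there were 8 of the 10 members for both cocultures (3 higher, 5 lower; 18.8% of all probe sets), 6 for the T cell coculture (15.4%), 6 for the monocyte coculture (17.5%) and 4 between the cocultures (7.49%). All 10 members lay above the dimmest 40% of probe sets. Among the 19392 probe sets above that line, the share at an unadjusted p under 0.05 for both cocultures was 28.3%. The members were chosen with earlier results of these data known, so these shares describe them and test nothing about the family.

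The median absolute log2 difference between both cocultures and monoculture was 0.49 over the 10 members, 0.17 over the brighter 19392 probe sets and 0.11 over all probe sets. The signed median of the members was -0.098 against 0.028 over all probe sets, with 5 members above 0 and 5 below. All 4 coculture arrays lay above both monoculture arrays for BCL2, BAX and PMAIP1, as they did for 15.2% of all probe sets. They lay below both monoculture arrays for BCL2L1, MCL1, BCL2A1 and BMF, as for 13.8% of all probe sets. Among the brighter 19392 probe sets, 3401 lay above in this way and 3845 below. The groups overlapped for BAK1, BCL2L11 and BBC3.

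**Figure D2:**
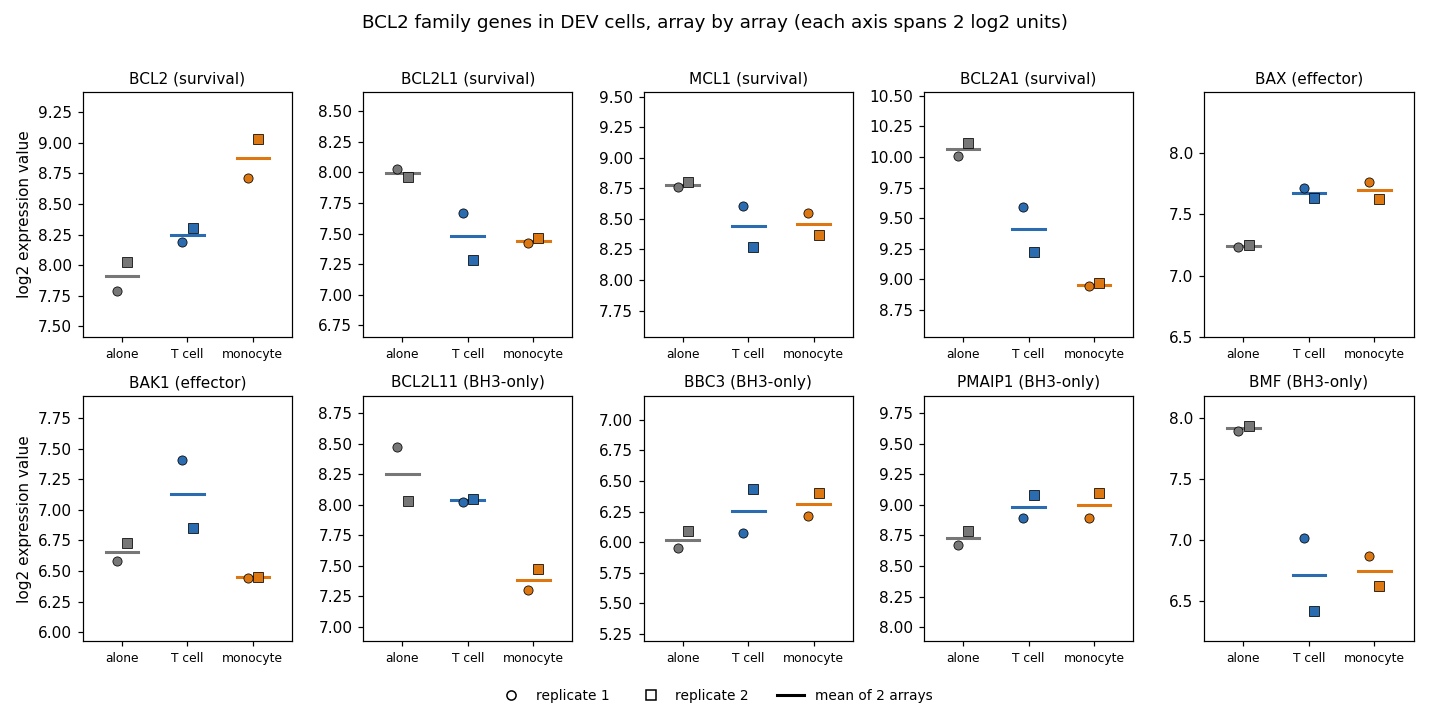
Log2 expression value of the 10 genes on each array (y axis, spanning 2 log2 units in each panel, so heights compare within a panel) by culture group (x axis: DEV cells alone, with T cells, with monocytes). Replicate 1 is drawn as a circle, replicate 2 as a square, and a bar marks the mean of both. BCL2A1 went from 10.06 alone to 9.41 and 8.96, and BMF from 7.92 to 6.72 and 6.75.

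The survival genes did not move one way. BCL2A1, a target of NF-kB in B cells, read 10.01 and 10.12 in monoculture, 9.59 and 9.23 with T cells and 8.94 and 8.97 with monocytes. The 3 groups did not overlap, with monoculture highest and the monocyte coculture lowest. The log2 difference for both cocultures was -0.88 ± 0.12 (standard error; 1.84-fold lower, limma adjusted p = 0.0479). With monocytes alone it was -1.11 ± 0.14 (2.15-fold lower, limma adjusted p = 0.0455), and with T cells alone -0.65 ± 0.14 (limma adjusted p = 0.133). The monocyte coculture array with high LYZ and the one without it gave nearly the same BCL2A1 level. Without the high-LYZ array the monocyte difference was -1.09 (limma adjusted p = 0.164), a fit in which the lone remaining array was assumed to vary like the other groups. The call thus sits near the threshold. It was lost after quantile normalization, in a fit with a replicate block and with limma-trend (adjusted p = 0.0569, 0.0521 and 0.0707 for both cocultures), and when either monoculture or either monocyte coculture array was left out (up to 0.306), while the difference over the arrays left out stayed between -0.97 and -0.79.

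BCL2, the founding survival gene of the family, ran the other way. Its level was 7.79 and 8.03 in monoculture, 8.19 and 8.30 with T cells and 8.71 and 9.04 with monocytes. Each group lay above the one before it without overlap. The difference with monocytes was 0.96 ± 0.15 (limma adjusted p = 0.0530), which missed the threshold, and its 95% interval ran from 0.61 to 1.32. With T cells it was 0.34 (interval -0.019 to 0.69). Leaving out the high-LYZ array gave 1.13 for the monocyte coculture (limma adjusted p = 0.155).

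BCL2L1 and MCL1, the survival genes that most cell types use, were both lower in every coculture array than in monoculture. BCL2L1 read 8.03 and 7.96 alone, 7.67 and 7.29 with T cells and 7.42 and 7.46 with monocytes. The difference for both cocultures was -0.53 ± 0.12 (limma adjusted p = 0.0898). MCL1 read 8.76 and 8.80 alone, 8.61 and 8.27 with T cells and 8.55 and 8.37 with monocytes, a difference of -0.33 ± 0.12 (limma adjusted p = 0.211). For both genes the T cell arrays were further apart than the monoculture arrays, with standard deviations of 0.27 and 0.24 against 0.047 and 0.025. Neither gene passed the test in any of the 4 comparisons.

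Of the effectors, BAX had the lowest standard error of the 10 members. It read 7.24 and 7.25 in monoculture, 7.71 and 7.63 with T cells and 7.76 and 7.63 with monocytes. The cocultures overlapped each other and lay above monoculture. The difference was 0.44 ± 0.082 for both cocultures (1.36-fold, interval 0.24 to 0.64, limma adjusted p = 0.0650), and nearly the same with T cells (0.43 ± 0.094) and with monocytes (0.45 ± 0.094). BAK1, the other effector, had no common direction. Its level was 6.58 and 6.73 alone, 7.41 and 6.85 with T cells and 6.45 and 6.45 with monocytes. Both T cell arrays lay above and both monocyte arrays below the monoculture arrays. The T cell mean rested in part on replicate 1, since the 2 T cell arrays gave a standard deviation of 0.40. The differences were 0.47 ± 0.19 with T cells (limma adjusted p = 0.306) and -0.20 ± 0.19 with monocytes (limma adjusted p = 0.659).

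Among the BH3-only genes, BMF showed the largest difference of any member. BMF, whose product is held at the actin-linked motor complexes until the cell is stressed, read 7.90 and 7.93 in monoculture, 7.02 and 6.42 with T cells and 6.87 and 6.63 with monocytes. All 4 coculture arrays were lower, and the cocultures overlapped each other. The difference for both cocultures was -1.18 ± 0.18 (2.27-fold lower, interval -1.61 to -0.75), with a limma adjusted p of 0.0508 that just missed the threshold. It was -1.20 ± 0.20 with T cells (limma adjusted p = 0.113) and -1.16 ± 0.20 with monocytes (limma adjusted p = 0.0646). Without the high-LYZ array the monocyte difference was -1.29 (limma adjusted p = 0.175).

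BCL2L11 encodes BIM, a potent activator of the effectors that is held down by survival signals in B cells. It read 8.47 and 8.03 in monoculture, 8.02 and 8.05 with T cells and 7.30 and 7.47 with monocytes. Both monocyte arrays were lower than the other 4 arrays, while the T cell arrays were level with monoculture replicate 2. The difference was -0.86 ± 0.16 with monocytes (limma adjusted p = 0.0693) and -0.21 ± 0.16 with T cells (limma adjusted p = 0.603). The monoculture replicates differed by more here than for any other member, with a standard deviation of 0.31, and without monoculture replicate 1 the T cell difference was 0.0056.

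The stress genes BBC3 and PMAIP1, both targets of p53, had small differences. BBC3 read 5.95 and 6.09 alone, 6.08 and 6.43 with T cells and 6.22 and 6.40 with monocytes. PMAIP1 read 8.67 and 8.79 alone, 8.89 and 9.08 with T cells and 8.89 and 9.10 with monocytes. All coculture arrays of PMAIP1 lay above monoculture, while T cell coculture replicate 1 and monoculture replicate 2 of BBC3 were level. The difference for both cocultures was 0.26 ± 0.13 for BBC3 (limma adjusted p = 0.344) and 0.26 ± 0.10 for PMAIP1 (limma adjusted p = 0.255).

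**Figure D3:**
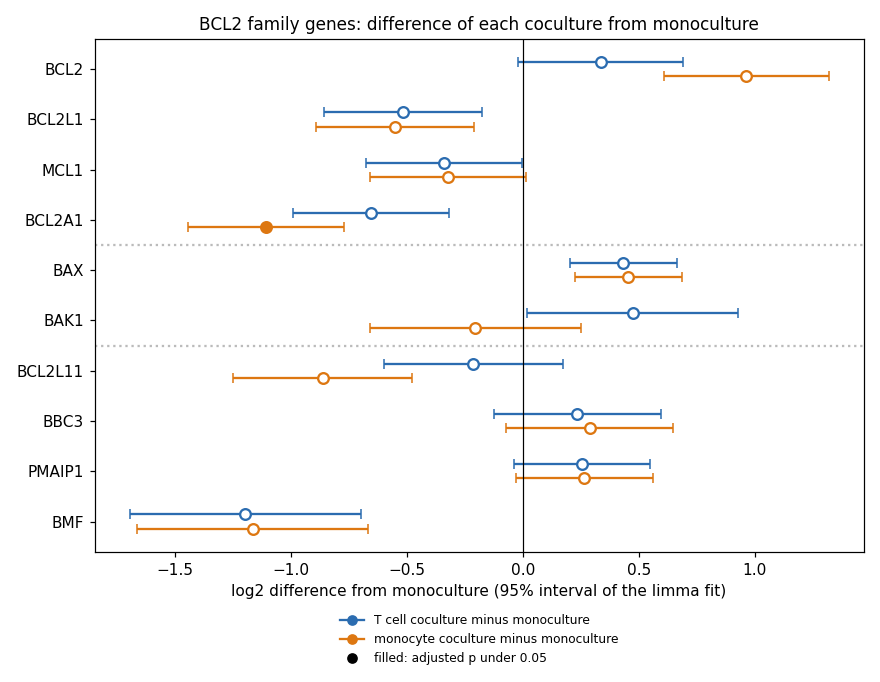
Log2 difference of each coculture from monoculture for the 10 genes (x axis, points with 95% intervals of the limma fit), with survival genes, effectors and BH3-only genes separated by dotted lines. Filled points have an adjusted p under 0.05, which holds for BCL2A1 with monocytes (-1.11). Both comparisons use the same 2 monoculture arrays.

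A summary by class was made from the mean deviation of its members from the monoculture mean. The survival genes averaged -0.17 and -0.42 on the T cell arrays and -0.28 and -0.23 on the monocyte arrays. The effectors averaged 0.61 and 0.29 with T cells and 0.16 and 0.094 with monocytes. The BH3-only genes averaged -0.23 and -0.23 with T cells and -0.41 and -0.33 with monocytes. On all 4 coculture arrays the survival and BH3-only means were thus below 0 and the effector mean above 0. These means hide members of opposite direction in each class, namely BCL2 in the first, BAK1 with monocytes in the second, and PMAIP1 and BBC3 in the third. The members of each class were chosen by name, with earlier results of these data known, and the means were not tested.

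The cocultures were also compared with each other directly. For 6 members the monocyte and T cell means differed by at most 0.054, and none of these 6 had an interval that excluded 0. BMF differed by 0.032 (interval -0.47 to 0.53), BAX by 0.022 (interval -0.21 to 0.25) and PMAIP1 by 0.0098 (interval -0.28 to 0.30). For the other 4 the intervals excluded 0 and the arrays of the cocultures did not overlap, although none passed the adjustment. BCL2 was higher with monocytes by 0.63 ± 0.15 (limma adjusted p = 0.476). BAK1 differed by -0.68 ± 0.19. BCL2L11 and BCL2A1 differed by -0.65 ± 0.16 and -0.45 ± 0.14. Their limma adjusted p-values lay between 0.505 and 0.550, and 0 of all 32321 probe sets were called in this comparison.

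The genes whose pattern was most like that of BCL2A1, the member called, were searched among 18403 other genes by Pearson's r over the 6 arrays. They were PITPNC1, which encodes a phosphatidylinositol transfer protein (r = 0.998), the phosphatase gene PPM1B (r = 0.996) and the RNA helicase gene DDX10 (r = 0.996). PITPNC1 read 7.77 and 7.85 alone, 7.46 and 7.18 with T cells and 7.02 and 6.97 with monocytes. The 6 points share 3 culture groups, so r describes the order of the groups as much as of single arrays, and no p is given.

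Beyond the 10 members, 12 further genes of the BCL2 family were measured, and none was called. For both cocultures 8 had higher and 4 lower means, with a median of 0.14 (0.028 over all probe sets). BNIP3L, a receptor for the removal of mitochondria, read 8.40 and 8.52 alone, 8.72 and 9.04 with T cells and 9.06 and 9.15 with monocytes (0.53 ± 0.11, limma adjusted p = 0.0793). BCL2L12 differed by 0.31 and the BH3-only gene HRK by 0.45, and BNIP3 by 0.22. BCL2L2, a further survival gene, was not analysed here.

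Downstream of the mitochondrion, 12 of 15 apoptosome, caspase and IAP genes had lower means (median -0.14) and none was called. Leaving out T cell coculture replicate 1 moved this median to -0.27, and leaving out T cell coculture replicate 2 moved it to -0.055. CYCS encodes cytochrome c, the protein that BAX and BAK1 let out. It read 8.57 and 8.58 alone, 8.20 and 7.89 with T cells and 8.17 and 8.24 with monocytes. All coculture arrays were lower, with a difference of -0.45 ± 0.11 (limma adjusted p = 0.0976). The initiator caspase gene CASP2 differed by -0.57 ± 0.15, the mitochondrial flavoprotein gene AIFM1 by -0.46 ± 0.16 and the inhibitor BIRC6 by -0.30 ± 0.082.

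Of 12 death receptor genes, 7 had higher and 5 lower means, and none was called. TNFRSF10B, which encodes the TRAIL receptor DR5, read 6.79 and 6.88 alone, 7.17 and 7.35 with T cells and 7.52 and 7.81 with monocytes. The 3 groups did not overlap, and the difference for both cocultures was 0.63 ± 0.11 (limma adjusted p = 0.0614). CFLAR, the inhibitor of caspase-8 at the receptor, differed by -0.43 ± 0.093, DAXX by -0.65 ± 0.11 and the ligand TNFSF10 (TRAIL) by -0.27 ± 0.099. The median of the list was 0.030, and it turned to -0.032 when each array was centred on its median and to -0.016 after quantile normalization.

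Among the 5 lists of partners and regulators, called genes were found in that of transcription factors that act on BCL2 family genes. Of 19 measured, 7 had higher and 12 lower means (median -0.082), and 2 rose. The median was 0.021 without monoculture replicate 2 and -0.13 without monoculture replicate 1. STAT5A, a cytokine-activated factor, read 7.41 and 7.51 alone, 8.37 and 8.56 with T cells and 8.41 and 8.17 with monocytes. It rose by 0.92 ± 0.11 for both cocultures (limma adjusted p = 0.0439). DDIT3 encodes CHOP, a factor of the unfolded protein response. It read 6.61 and 7.10 alone, 7.80 and 8.13 with T cells and 8.34 and 8.75 with monocytes, and rose by 1.40 ± 0.19 (limma adjusted p = 0.0491) and by 1.69 ± 0.22 with monocytes alone (limma adjusted p = 0.0481). The calls for both cocultures were lost when either monoculture or either monocyte coculture array was left out, with adjusted p-values between 0.123 and 0.290 (that of DDIT3 for both cocultures also without T cell coculture replicate 2, at 0.0642). With limma-trend the adjusted p was 0.0616 for each of them. The call of DDIT3 with monocytes was lost after quantile normalization (0.0509), with limma-trend (0.0634) and when a monoculture or monocyte coculture array was left out (0.155 to 0.258).

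NFKB1, which encodes the p105/p50 subunit of NF-kB, followed the same order of groups as BCL2A1. It read 9.37 and 9.24 alone, 9.11 and 8.96 with T cells and 8.42 and 8.51 with monocytes. It fell with monocytes by 0.84 ± 0.10 on the log2 scale (limma adjusted p = 0.0455), whereas the difference for both cocultures was -0.55 ± 0.089 (limma adjusted p = 0.0551). The call with monocytes was lost after quantile normalization, with the replicate block and with limma-trend (adjusted p = 0.0582, 0.0512 and 0.0799) and when either monoculture or either monocyte array was left out (0.163 to 0.258), 0.163 being the value without the high-LYZ array. Of the other NF-kB subunit genes in this list, NFKB2, REL and RELB had coculture arrays that overlapped monoculture. RELA read 7.28 and 7.27 alone, 7.11 and 6.58 with T cells and 7.18 and 6.93 with monocytes. A link between NFKB1 and BCL2A1 was not tested. JUN differed by -0.76 ± 0.11 (limma adjusted p = 0.0508). MYC, named after its values were seen because it had the lowest difference of all probe sets, read 10.03 and 10.12 alone, 8.42 and 6.54 with T cells and 6.71 and 6.38 with monocytes (-3.06 ± 0.48, limma adjusted p = 0.0540).

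Finally, 15 genes for turnover, tethering and mitochondrial partners of the family were measured, 8 with higher and 7 with lower means, and none was called. DYNLL1 encodes the dynein light chain that tethers BIM. DYNLL1 read 9.88 and 10.01 alone, 8.93 and 7.99 with T cells and 8.79 and 8.69 with monocytes. All coculture arrays were lower, with a difference of -1.35 ± 0.25 (limma adjusted p = 0.0647). MTCH2, a mitochondrial docking site of BID, differed by -0.54 ± 0.12 and the kinase gene PIM2 by -0.72 ± 0.28. DYNLL2, the light chain that tethers BMF, was looked at because of its partner's difference and read 6.88 and 7.13 alone, 6.96 and 6.79 with T cells and 6.92 and 7.01 with monocytes, which overlapped. HUWE1, a ubiquitin ligase of MCL1, differed by -0.25 ± 0.093. The median of the list was 0.020, and it turned to -0.042 with median centring and to -0.028 after quantile normalization.

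**Figure D4:**
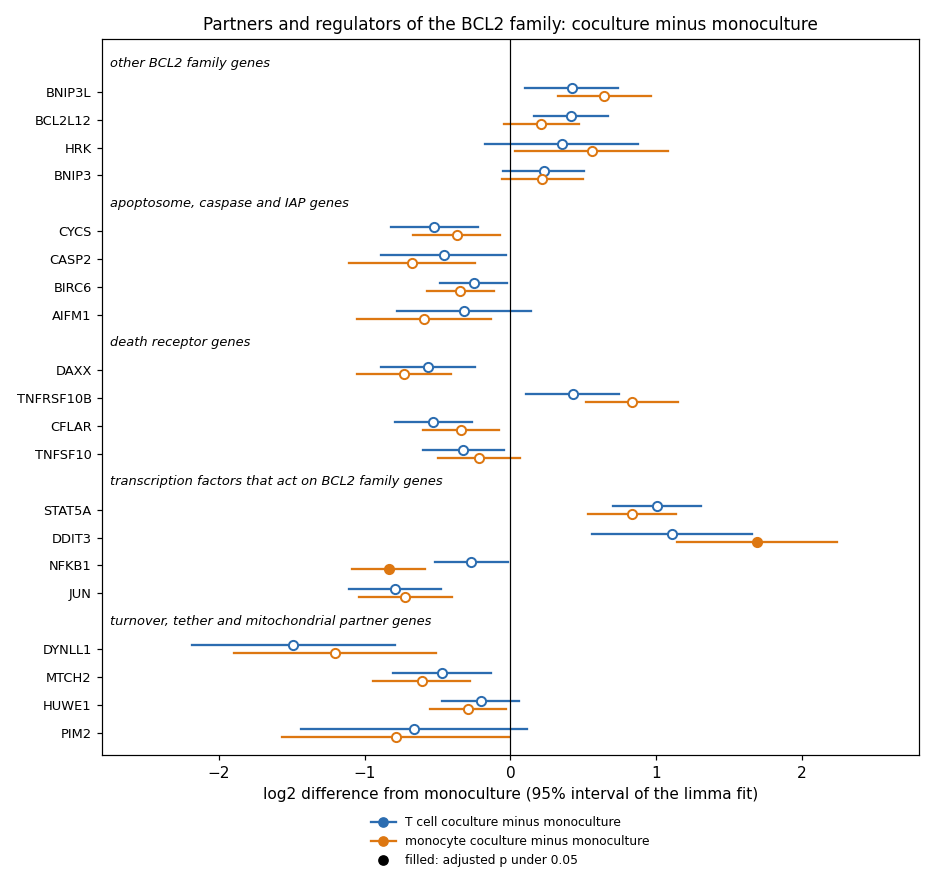
Log2 difference of each coculture from monoculture (x axis, points with 95% intervals of the limma fit) for 4 genes from each of 5 lists of partners and regulators, named at the left. Filled points have an adjusted p under 0.05, which holds for DDIT3 (1.69) and NFKB1 (-0.84) with monocytes. STAT5A passed for both cocultures combined, which is not drawn.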

How the data were processed

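Whole transcriptome amplification was run on 40 ng RNA of each DEV sample, and the biotin-labelled product went on 1 array. The authors deposited 1 normalized log2 value per probe set and array. How these were summarised, background-corrected and normalized is not given in the sources used here. The values were used as deposited, with 0 missing. Genes were named from the platform annotation, in which 19158 probe sets carried 1 symbol, 1388 several and 11775 none in the table used here.

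A mean per group was fitted for all 32321 probe sets and 6 arrays with lmFit and eBayes of limma 3.58.1 (R 4.3.3; 3 residual and 3.08 prior degrees of freedom). The p-values of each comparison were adjusted over the whole table (Benjamini-Hochberg), and an adjusted p under 0.05 was called. Errors are standard errors of this fit unless a standard deviation is named. The fit was tested on simulated data. Precision is limited by the number of arrays.

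All 10 members are named. From each of 5 lists of related genes, every called gene was named, filled up to 4 by the smallest p for both cocultures. For each called member, the 3 genes with the highest r were named. Members and lists were chosen with earlier results of these data known. The alternatives were median centring, quantile normalization, a filter on the dimmest 40% of probe sets, a replicate block, limma-trend, the mean of a gene's probe sets and leaving out each array. Promoters were read from RefSeq (GRCh38.p14). Gene positions on the array were not used here.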

Additional observations from a re-analysis of the deposited data

Results flagged for a closer look

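BAK1 was the only member for which the cocultures stood on opposite sides of monoculture. Both T cell arrays lay above and both monocyte arrays below the monoculture mean, and the difference between the cocultures was -0.68 ± 0.19 on the log2 scale (monocyte minus T cell). The difference was tested in limma over all probe sets and did not pass (adjusted p = 0.529). Without T cell coculture replicate 1, the array with the highest BAK1 level, it was -0.40, and without T cell coculture replicate 2 it was -0.96.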

How the results depend on the processing

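The number of members called depended on the setting. For both cocultures 1 member was called as reported, 2 with median centring, 0 after quantile normalization, 2 without the dimmest 40% of probe sets, 0 with limma-trend, and 0 to 3 when an array was left out. For the T cell coculture the count was 0, and 0 to 3 when an array was left out (3 without replicate 1 of that group). For the monocyte coculture it was 1, with 3 without the dimmest probe sets, 0 with limma-trend and 0 to 4 when an array was left out. Between the cocultures it was 0 in all settings run. BCL2A1 kept a difference of -0.74 (both cocultures, adjusted p = 0.0569) and -0.91 (monocytes, adjusted p = 0.0559) after quantile normalization, where BCL2 was called instead with monocytes (1.13, adjusted p = 0.0496). BMF was called for both cocultures with median centring (-1.24, adjusted p = 0.0447) and without the dimmest probe sets (adjusted p = 0.0377). The causes were not tested.

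With a replicate block in the fit, 1 member was called for both cocultures (BMF, adjusted p = 0.0491) and 1 with monocytes (BCL2, adjusted p = 0.0482), while BCL2A1 had adjusted p-values of 0.0521 and 0.0512. The labels link the arrays only by a replicate number. Deviations of replicate 1 arrays correlated by 0.027 (monoculture and T cell), -0.15 (monoculture and monocyte) and 0.26 (T cell and monocyte). These correlations cannot decide whether same-numbered arrays shared a donor or run. A block with the monoculture numbers crossed, added after the data were seen, called 2 members for both cocultures and 4 with monocytes.

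Over all probe sets, the calls for both cocultures (232, of which 80 higher and 152 lower) became 564 (120 and 444) with median centring, 202 (90 and 112) after quantile normalization, 756 without the dimmest probe sets, 55 with limma-trend, and 0 to 2329 when an array was left out (2329 without T cell coculture replicate 1).

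Leaving out an array turned the sign of small differences. These were BAK1 for both cocultures (-0.0054 to 0.27), BCL2L11 with T cells (-0.43 to 0.0056) and, between the cocultures, BCL2L1 (-0.23 to 0.16), MCL1 (-0.15 to 0.18), BAX (-0.045 to 0.088), BBC3 (-0.12 to 0.23), PMAIP1 (-0.094 to 0.11) and BMF (-0.27 to 0.33). No difference of a member turned in sign under the other settings. List medians also turned when an array was left out, over -0.13 to 0.021 for transcription factors, -0.053 to 0.037 for death receptor genes and -0.022 to 0.038 for turnover, tether and partner genes.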
